A study of Mus musculus with 2 samples.

Results

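Star and 6 genes related to it by name and by their role in moving lipids between membranes were followed in the mouse adrenal gland, from transcript counts down to single splice sites. The 7 genes are Star, Stard3, Stard3nl, Stard4, Stard5, Stard7 and Stard10. They were chosen by gene symbol among the 16910 annotated nuclear genes that had a read, and all transcript models assigned to them were kept, 123 models in replicate 1 and 75 in replicate 2. The RNA came from whole adrenal glands of female B6CASTF1/J mice aged 2 months, a first-generation cross of B6 and CAST mice by its name, with no treatment or engineered allele given. There are 2 libraries in 1 group, replicates 1 and 2, and no other condition. The biosample labels number the animals 3 and 4 while the library labels give 3 for both and a single donor identifier is shared, so differences between the libraries may be technical. The tissue is bulk, so fewer cells of a type and less RNA per cell cannot be told apart.

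Star, the steroidogenic acute regulatory protein, delivers cholesterol to the inner mitochondrial membrane, where Cyp11a1 cleaves its side chain to begin steroid synthesis. It gave its name to the START domain, a fold with a pocket that holds 1 lipid molecule. Stard3 sits in late endosomes, binds cholesterol and ties them to the endoplasmic reticulum, while Stard3nl shares its membrane-spanning part and lacks the START domain. Stard4 and Stard5 are soluble proteins, the former a sterol carrier whose gene responds to sterol supply. Stard7 and Stard10 carry phospholipids, Stard7 supplying mitochondria with phosphatidylcholine.

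Star has 7 exons in its annotated protein-coding transcript Star-201 (chromosome 8, 25808474 to 25815982 of mm10, plus strand). Its 6 exon junctions are shown because most results on Star below count reads across them. Each line gives 15 bases on either side, 5′ to 3′, with the downstream exon in capitals.

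Star exon 1 to exon 2: tgcggaatatgaaagGATTAAGGCACCAAG
Star exon 2 to exon 3: ggagctctctgcttgGTTCTCAACTGGAAG
Star exon 3 to exon 4: aaggaaagccagcagGAGAACGGGGACGAA
Star exon 4 to exon 5: gtcaaggagatcaagGTCCTGCAGAGGATT
Star exon 5 to exon 6: gagtggtgtcatcagAGCTGAACACGGCCC
Star exon 6 to exon 7: agtattgacctgaagGGGTGGCTGCCGAAG

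At 4 sites near these junctions, some reads were stored as spliced inside the annotated exon. The bases those reads left out are in capitals, between 20 transcript bases on either side. All 4 lie in coding sequence.

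Star exon 6 acceptor: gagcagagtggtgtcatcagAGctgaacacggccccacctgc
Star exon 4 acceptor: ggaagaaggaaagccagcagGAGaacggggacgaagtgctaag
Star exon 5 acceptor: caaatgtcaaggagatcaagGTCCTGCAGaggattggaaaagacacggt
Star exon 3 donor: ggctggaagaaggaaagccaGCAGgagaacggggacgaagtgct

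Replicate 1 held 1277310 reads and replicate 2 held 520388, of which 94.7% and 96.6% belonged to annotated nuclear genes. Levels are CPM, reads scaled to 1000000 of those nuclear reads. A long read stands for 1 molecule, so CPM compares molecules between genes, and CPM per kilobase of the main transcript is given beside it. With 3 reads as the floor in each library, a gene without reads could lie anywhere up to 2.48 CPM in the deeper library and 5.97 CPM in the other. Summed markers of the adrenal cortex were 54134 and 73080 CPM, with all 5 detected at 3 reads or more in each library. Chromaffin markers of the medulla summed to 11580 and 6677 CPM (5 of 5 detected) and fat markers to 7532 and 7701 CPM (5 of 5). The 4 kidney markers stood at 4.96 and 3.98 CPM together, and none was detected. Macrophage (3 of 3 detected), endothelial (3 of 3), red blood cell (2 of 2) and liver markers (2 of 3) each summed to under 923 CPM in either library. Intervals and standard errors (SE) cover counting error only.

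Star RNA was among the most abundant of the gland. Star (ENSMUSG00000031574.8) had 11354 reads in replicate 1 and 4964 in replicate 2, or 9388 and 9876 CPM, a mean of 9632 ± 345 CPM (SD, n = 2). It ranked 4 of 16910 genes. Next above it among protein-coding genes were Cyp11a1, the side-chain cleavage enzyme that receives the cholesterol, at 20044 ± 260 CPM and Cyp11b1, the 11-beta-hydroxylase, at 13717 ± 3103 CPM. Next below were Hsd3b1, the 3-beta-hydroxysteroid dehydrogenase, at 7636 ± 542 CPM and Acly, the ATP citrate lyase, at 5020 ± 891 CPM. Cyp11a1, like Star, varied little between the libraries, at 20228 and 19861 CPM, whereas Cyp11b1 stood at 11523 and 15912 CPM.

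Among the 6 genes other than Star, Stard7 was the most abundant in molecules. Stard7 (ENSMUSG00000027367.16, chromosome 2, 127270218 to 127298932, plus strand) stood at 210.8 CPM in replicate 1 and 204.9 CPM in replicate 2, a mean of 207.9 ± 4.19 CPM, 46.3-fold below Star. The 6 genes without Star summed to 387.5 ± 19.1 CPM, from 485 and 188 reads. Star thus made up 95.9% of the reads of the 7 genes in replicate 1 and 96.4% in replicate 2.

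The endosomal pair had nearly equal levels. Stard3nl (ENSMUSG00000003062.13, chromosome 13, 19357676 to 19395795, minus strand) stood at 57.1 and 55.7 CPM from 69 and 28 reads, a mean of 56.4 ± 0.952 CPM. Stard3 (ENSMUSG00000018167.10, chromosome 11, 98358368 to 98381112, plus strand) stood at 55.4 and 47.7 CPM from 67 and 24 reads, a mean of 51.6 ± 5.41 CPM. The libraries of Stard3nl were both above those of Stard3, by less than the counting error of either. Per kilobase of the main transcript the gap was wider, at 42.5 CPM for Stard3nl and 24.9 CPM for Stard3, because Stard3nl-201 is 1327 bases long and Stard3-201 is 2070.

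Stard5, Stard10 and Stard4 were the lowest. Stard5 (ENSMUSG00000046027.17, chromosome 7, 83631959 to 83653127, plus strand) had 26 and 21 reads, or 21.5 and 41.8 CPM. Stard10 (ENSMUSG00000030688.15, chromosome 7, 101317086 to 101346626, plus strand) had 41 and 11 reads, or 33.9 and 21.9 CPM. Stard4 (ENSMUSG00000024378.9, chromosome 18, 33199355 to 33213862, minus strand) had 27 reads in replicate 1 and 1 in replicate 2, or 22.3 and 1.99 CPM. The order of these 3 by mean CPM, Stard5 then Stard10 then Stard4, did not separate them, because the libraries of Stard5 and Stard10 overlapped, as did those of Stard10 and Stard4. Per kilobase Stard10 stood above Stard5, at 19.9 against 12.7 CPM, and Stard4 stayed lowest at 2.39 CPM. Star, Stard7, Stard3nl and Stard3 each lay above the next gene in CPM in both libraries, and per kilobase Star stood at 2381 CPM and Stard7 at 66.7.

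**Figure D1:**
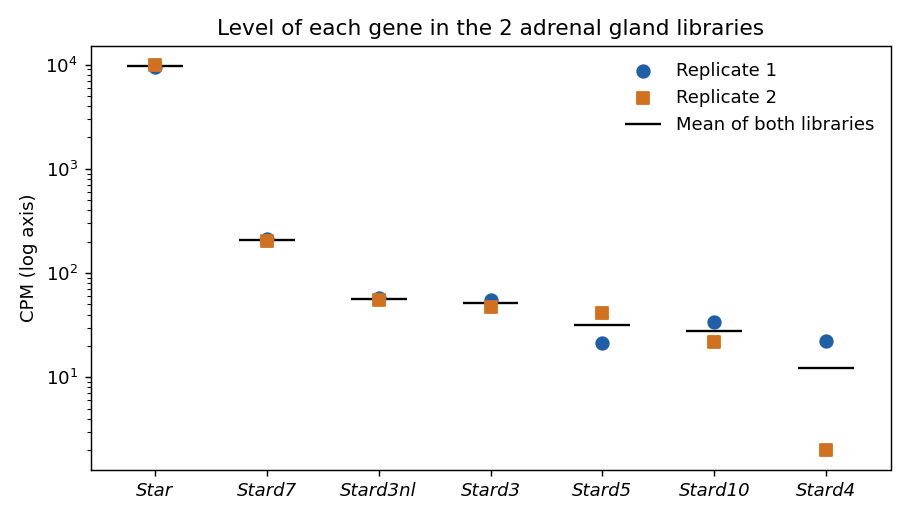
Level of the 7 genes on a logarithmic CPM axis, with a circle for replicate 1, a square for replicate 2 and a bar for their mean. Star lies near 9632 CPM, far above Stard7 at 207.9 CPM, and the libraries part most at Stard5 and Stard4.

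The libraries were then set against each other, which asks how repeatable each level is and not how a condition acts. Fisher's exact test (two-sided, Benjamini-Hochberg adjusted over 10170 genes) called those that differed 2-fold or more with an adjusted p below 0.05. Of the 7 genes 1 was called, Stard4, lower in replicate 2, against 9.55% of all genes tested (3.59% lower and 5.96% higher), and a count of 1 among 7 cannot be told apart from those shares. With 1 library a side these calls compare libraries and have no replicate check. The median log2 ratio of replicate 2 over replicate 1 was -0.04 over the 7 genes and -0.06 over all genes tested.

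Stard4 was lower in replicate 2 by 11.2-fold (95% exact interval 1.85 to 459), with a log2 ratio of -2.93 (SE 1.21, 0.5 added reads, adjusted p = 0.0109 by Fisher's exact test). The value rests on a single read in replicate 2. With annotated transcripts alone, in the gene and in the totals, the call was lost at a log2 ratio of -2.53 (adjusted p = 0.0528), and with replicate 1 thinned to the depth of replicate 2 at -2.66 (adjusted p = 0.109). Stard5 was higher in replicate 2 by 1.94-fold (1.04 to 3.59), just under the fold minimum, with an adjusted p of 0.108 by Fisher's exact test. Stard10 was at 0.646 of its replicate 1 level (0.299 to 1.28, adjusted p = 0.475 by Fisher's exact test).

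Among the more abundant genes the interval was narrow for Star and wider for Stard7, Stard3nl and Stard3. Star differed by 1.05-fold (1.02 to 1.09), a log2 ratio of 0.07 (SE 0.025) whose adjusted p was 0.0204 by Fisher's exact test, far below the fold minimum. With reads of annotated transcripts alone, in Star and in the library totals it is scaled to, the log2 ratio was -0.0030 (adjusted p = 0.991 by Fisher's exact test). Stard7 had a ratio of 0.972 (0.765 to 1.23), Stard3nl of 0.976 (0.606 to 1.54) and Stard3 of 0.862 (0.517 to 1.39). The intervals of Stard7, Stard3nl and Stard3 all include equal levels, and the counts do not tell apart the ratios within them. The cortex and chromaffin marker sums given above also differed between the libraries, in opposite directions. All cortex markers but Cyp11a1 rose in replicate 2, and only Cyp21a1, at 14022 and 28073 CPM, was called. The chromaffin list was split. Chgb (5350 and 2344 CPM), Chga (4409 and 2590) and Pnmt (399.4 and 195.0) fell, whereas Th (1307 and 1371) and Dbh (115.8 and 177.1) rose. The part of either sum in these ratios was not tested.

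**Figure D2:**
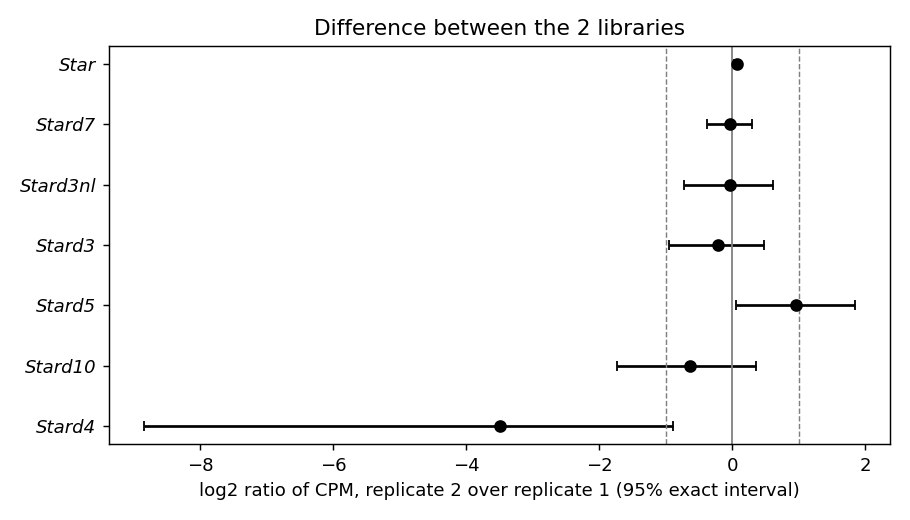
Log2 ratio of CPM in replicate 2 over replicate 1 for each gene, without added reads, with 95% exact intervals as bars and dashed lines at a 2-fold difference. The interval of Star, 1.02 to 1.09 as a ratio, is the narrowest, and that of Stard4, 0.00218 to 0.541, the widest.

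Each gene was read mainly as 1 annotated transcript. GENCODE M21 lists 47 transcripts for the 7 genes, of which 14 had a read, 9 of them in both libraries, and 33 had none. Star-201, with 852 coding bases and 3099 bases after them, took 9366 of 11354 reads (82.5%, 95% Clopper-Pearson interval 81.8 to 83.2) in replicate 1. It took 4153 of 4964 (83.7%, 82.6 to 84.7) in replicate 2. Star-202, which starts upstream at 25806555, had 0 reads in both, which allows a share of up to 0.0264% and 0.0604%. An unannotated chain with 1 read in replicate 1 was stored from that same start and held all introns of Star-201.

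The main transcript of the other genes was also the protein-coding form numbered 201, or 202 for Stard7. Stard7-202 (8 exons, 3116 bases) took 85.1% of 255 reads and 87.4% of 103. Stard3nl-201 (9 exons) took 89.9% and 85.7%, Stard3-201 (15 exons) 83.6% and 87.5%, and Stard10-201 (7 exons, 1400 bases) 82.9% and 90.9%. Stard5-201 (6 exons, 2483 bases) took 20 of 26 reads and 15 of 21, or 76.9% and 71.4%. Stard4-201 (6 exons, 5097 bases, the longest of the main transcripts) took 18 of 27 reads, and the 1 read of replicate 2. Stard10-202 and Stard10-203, which begin upstream at 101317086 and 101317119, had 0 reads, which at this depth allows up to 7.32% and 27.3% of the gene.

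In 2 genes the depth allowed a test of these shares. The share of reads in annotated transcripts was 82.5% and 83.7% for Star (adjusted p = 0.212 by Fisher's exact test) and 86.7% and 91.3% for Stard7 (adjusted p = 0.552 by Fisher's exact test). Neither was called, where 17.7% of 2098 genes tested were, 363 of the 371 toward a higher share in replicate 2. Among reads of annotated and newly spliced transcripts, the main one held 98.5% and 98.0% for Star (adjusted p = 0.483 by Fisher's exact test). For Stard7 it held 96.4% and 90.9% (adjusted p = 0.678 by Fisher's exact test). Neither was called, against 0.742% of 1887 genes. The direction for Star depended on which reads were counted. Without the genomic class, the authors' class for models outside the annotated and spliced classes, its annotated share was 92.7% in replicate 1 and 85.3% in replicate 2 (adjusted p = 8.9e-41 by Fisher's exact test), and without all models of a single exon it was 92.7% and 90.2% (adjusted p = 1.79e-05).

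**Figure D3:**
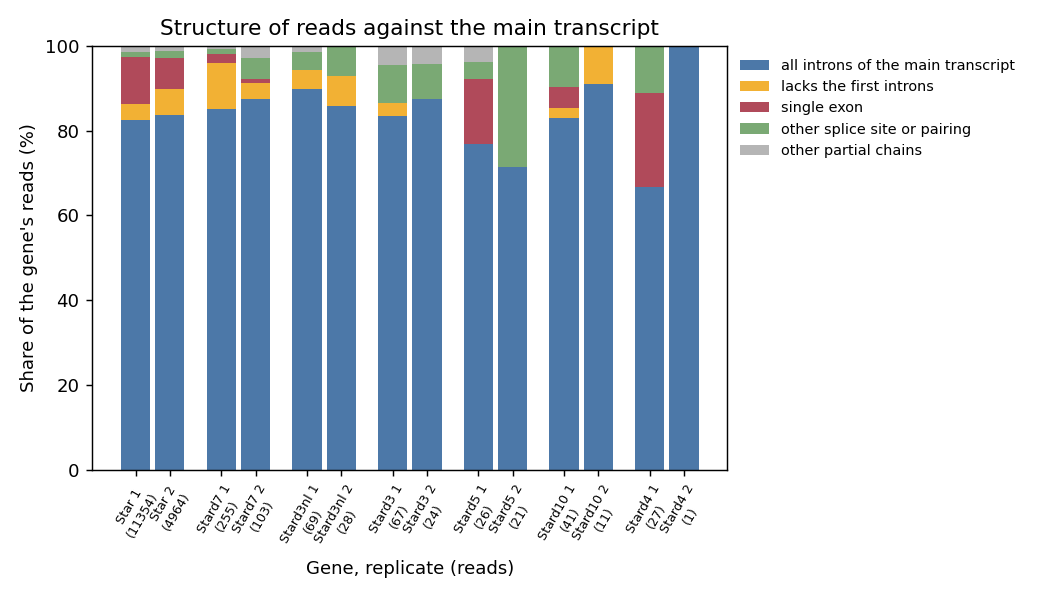
Share of each gene's reads by structure, 1 bar per gene and replicate with its number of reads in brackets. All introns of the main transcript were removed in 82.5% and 83.7% of Star reads, single-exon reads made up 11.0% and 7.29%, and the bars of Stard5, Stard10 and Stard4 rest on 41 reads or fewer.

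Reads of Star that were not Star-201 mostly held part of its chain of introns, or none of it. Reads of a single exon numbered 1249 (11.0%, 10.4 to 11.6) in replicate 1 and 362 (7.29%, 6.58 to 8.05) in replicate 2. Over 2035 genes the median single-exon share was 2.46% and 0.976%, and 298 and 137 genes had a higher share than Star. Pooled over all reads of annotated nuclear genes, the single-exon share was 9.98% in replicate 1 and 6.26% in replicate 2, near that of Star. Stard7 stood at 1.96% and 0.971%. Most of these Star reads came from exon 7, the last exon, which holds the stop codon and the long untranslated end.

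The same stretch was filed differently in the libraries. In replicate 1 a single genomic model from 25812619 to 25815982 held 1238 reads, 10.9% of the gene. In replicate 2 a model from 25812619 to 25813411, called an incomplete splice match, held 264 reads (5.32%), and a genomic model from 25813411 to 25815310 held 94 (1.89%). Class totals of Star moved with this, the genomic class holding 1250 and 98 reads and incomplete splice matches 599 and 628. The shared start lies 154 bases before exon 7, inside intron 6, and was also used as an acceptor by spliced reads, as given below.

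Reads lacking the splices of the first introns were the next group of Star, 440 (3.88%, 3.53 to 4.25) in replicate 1 and 311 (6.27%, 5.61 to 6.98) in replicate 2. The most frequent form had introns 4 to 6 alone spliced out, with 249 reads (2.19%) and 144 (2.90%). Its stored start was 25810831, in intron 3, in replicate 1 and 25810948, in exon 4, in replicate 2. A form that lacked only the splice of intron 1 was stored from the annotated start, so its stored first exon runs through intron 1. It had 99 reads (0.872%, 0.709 to 1.06) and 105 (2.12%, 1.73 to 2.55), intervals that do not overlap. Reads lacking the splices of the last introns numbered 128 (1.13%) and 46 (0.927%). Reads that left an inner intron in place were rare, 16 and 6.

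Across the 6 introns of Star, the share of all Star reads with the intron spliced out was lowest at intron 1 and higher toward the 3′ end. In replicate 1 it was 84.7% at intron 1, 85.7% at introns 2 and 3, 88.3% at intron 4, 88.1% at intron 5 and 87.4% at intron 6. In replicate 2 it was 85.7%, 88.2%, 88.0%, 91.6%, 91.8% and 91.6% in the same order. Counting intervals of the libraries overlapped at intron 1 and not at introns 2 to 6. Single-exon reads, 11.0% and 7.29% of Star reads, are in the denominator and can hold no splice, so these differences do not measure splicing alone. Without single-exon models the share in Star-201 ran the other way, at 92.7% in replicate 1 and 90.2% in replicate 2. Models whose stored exons cover an intron whole were few, at intron 1 0.986% and 2.20% of reads and at intron 6 0.872% and 0.0604%. At intron 1 these were 112 and 109 reads, mostly the 99 and 105 above that lacked only its splice. At intron 6, all 99 reads of replicate 1 were 1 model that lacked only the last splice and was stored to 25813410. In replicate 2 that chain had 34 reads and was stored to 25812423, inside intron 6. The shortest intron, intron 4 of 109 bases, was covered by 0.247% and 0.121%, and the longest, intron 3 of 1010 bases, by 0.159% and 0.161%.

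**Figure D4:**
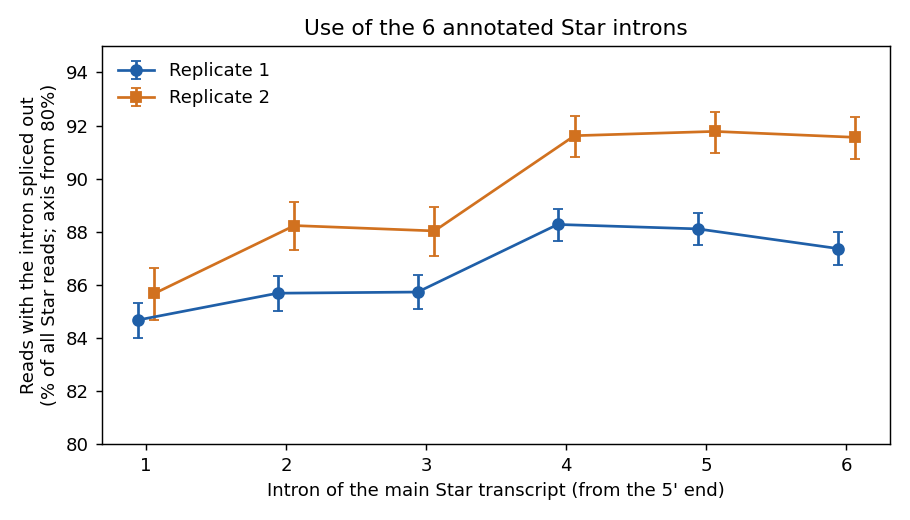
Percent of all Star reads in which each annotated intron was spliced out, with 95% exact intervals, on an axis that starts at 80%. Both libraries lie lowest at intron 1, at 84.7% and 85.7%, and replicate 2 lies above replicate 1 by more than the counting intervals at introns 2 to 6. Single-exon reads, which can hold no splice, are part of the total, at 11.0% in replicate 1 and 7.29% in replicate 2.

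New splice sites of Star were many in kind and rare in reads. Chains of introns with another splice site or pairing numbered 59 over both libraries, from 140 reads in replicate 1 and 83 in replicate 2. Of these 59, 40 had a single read over both libraries, 16 were found in both, and 7 had at least 3 reads in each. Counting sites in place of chains, 32 unannotated sites were paired with an annotated site, 13 were found in both libraries and 8 had at least 3 reads in each. Of the 8, 4 were donors past the end of exon 1, 3 lay within 10 bases of the annotated site, and 2 changed the exon by a multiple of 3 bases. Sites named next were picked with their values in view.

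The most used was stored as the exon 6 acceptor moved 2 bases into the exon, leaving out AG. It was in 32 reads in replicate 1 (0.319% of new plus annotated reads there, 0.218 to 0.450) and 9 in replicate 2 (0.197%, 0.0902 to 0.374). A shift of 2 bases is not a whole codon. The exon 4 acceptor moved 3 bases, leaving out GAG, was in 19 reads (0.195%) and 15 (0.342%). Exon 4 begins on a codon boundary, after 101 whole codons, so those reads leave out 1 codon. The exon 5 acceptor moved 9 bases, leaving out GTCCTGCAG after 154 whole codons, was in 8 reads and 1 read. The left-out bases of all 3 acceptors end in ag, the letters at the end of most introns. The exon before each also ends in ag. The bases of a read alone thus do not fix on which side of the junction bases were left out. Letters were compared for these 3 alone and not for the other sites below, where the GCAG left out at the exon 3 donor begins with gc.

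Around exon 3 the donor was moved both ways. It was extended by 4 bases in 8 and 9 reads (0.0821% and 0.206%), and shortened by 4 bases, leaving out GCAG, in 2 and 4 reads. Donors 139, 199, 321 and 584 bases past exon 1 had 4 and 5, 4 and 9, 4 and 9, and 3 and 4 reads. The exon 7 acceptor 154 bases upstream was in 16 reads (0.161%) and 3 (0.0660%), at the position where the single-exon reads were stored as starting. Skipping of whole annotated exons was seen in 1 read of replicate 1 and 2 reads of replicate 2.

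**Figure D5:**
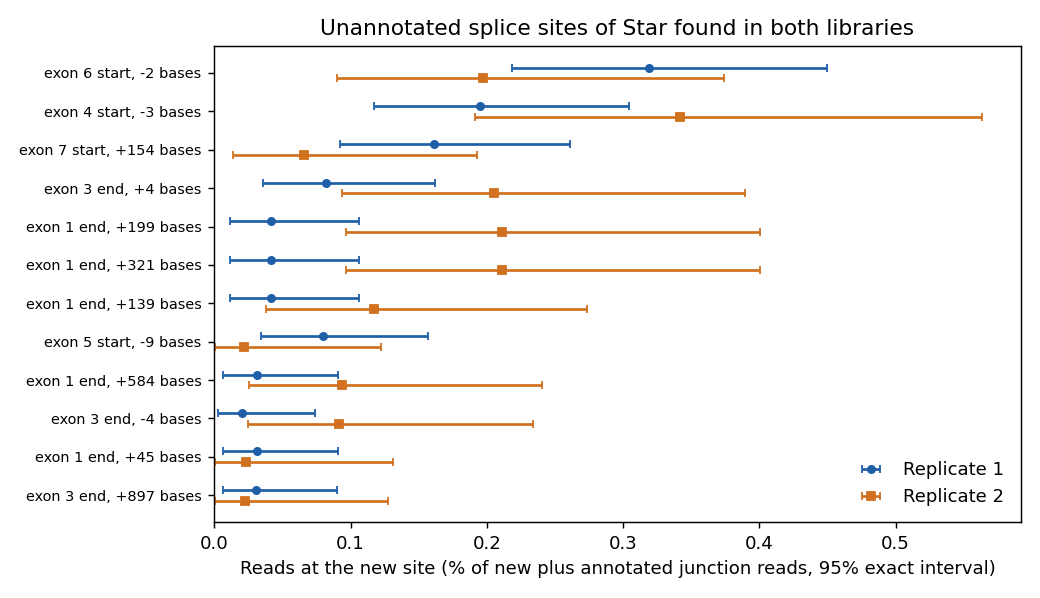
Share of reads using each unannotated Star splice site found in both libraries, as a percent of the new plus annotated junction reads, with 95% exact intervals. Minus signs mark bases left out of the exon and plus signs bases added, and the highest site, exon 6 at -2 bases, is at 0.319% and 0.197%. An acceptor beyond the end of Star with 6 and 2 reads is not drawn.

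That acceptor lies at 25822708, within Ash2l on the opposite strand, and joins Star exon 6 to sequence past the annotated gene. New antisense models at Star held 43 reads in replicate 1 and 12 in replicate 2. Whether the counting used strand is not given in the sources used here, so reads of Star and of its antisense partner may not be fully separated.

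Stored 3′ ends of Star models other than Star-201 were grouped at a few positions. By reads, replicate 1 was led by the annotated end at 25815982, with the 1238 reads of the single-exon model above, and by 25813614, with the 249 reads of 1 model. By number of models it was led by 25813410, 527 bases past the last coding base before the stop codon, and 25814464, 1581 bases past that base. Each had 19 of 76 models, with 195 and 85 reads. In replicate 2, 20 of 44 models with 448 reads ended at 25815310, 2427 bases past the last coding base. Another 10 models with 285 reads ended at 25813411, 528 bases past that base. The ends at 25813410 and 25813411 differ by 1 base and were stored in both libraries. All Star-201 reads are pooled under the annotated end at 25815982, so use of each end by Star-201 reads was not measured here.

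The other genes had too few reads for such detail, with some exceptions. Reads of Stard7 that lacked the splices of the first introns numbered 28 (11.0%, 7.42 to 15.5) in replicate 1 and 4 (3.88%, 1.07 to 9.65) in replicate 2. Within them a form beginning at 127284234, inside exon 2, had 24 reads and 1 read, and it was picked after its values were seen. Stard4 had a single-exon genomic model from 33199355 to 33201277, within the end of its last exon, with 5 of 27 reads (18.5%) in replicate 1. In Stard5, 6 of 21 reads of replicate 2 used another splice site or pairing, against 1 of 26 in replicate 1, spread over 5 chains. Among the 6 genes other than Star, no new spliced chain had 3 reads in each library.

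The remaining genes of the START family had few reads. Of 9, 4 were detected, and Stard6 and Acot12 had 0 reads. Acot11, a thioesterase with a START domain, stood at 28.9 and 57.7 CPM, a log2 ratio of 1.00 just short of 2-fold (adjusted p = 0.0476 by Fisher's exact test). Col4a3bp, the ceramide carrier, stood at 42.2 and 39.8 CPM, Stard8 at 9.92 and 11.9 CPM, and Pctp, the phosphatidylcholine carrier, at 14.1 and 5.97 CPM. None of the 5 tested was called, a count that cannot be told apart from the 9.55% of all genes, and their median log2 ratio was -0.06.

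Aster proteins, which carry cholesterol from the plasma membrane to the endoplasmic reticulum, were led by Gramd1b at 298.5 and 449.6 CPM. Gramd1a, at 28.9 and 81.6 CPM, was called as higher in replicate 2 (log2 ratio 1.49, SE 0.33, adjusted p = 0.000178 by Fisher's exact test). Gramd1c had 1 read over both libraries. The median log2 ratio of the 2 genes tested, Gramd1b and Gramd1a, was 1.04. A count of 1 called among 2 cannot be told apart from the 9.55% of all genes tested.

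Partners of Star at the mitochondrion were all detected, 8 of 8 entry and cleavage genes and 8 of 8 import and turnover genes. None of these was called in either direction, where 9.55% of all genes tested were, and lists of 8 are too short to set apart from that share. The median log2 ratios were -0.21 and -0.37. Fdx1, the ferredoxin that feeds electrons to Cyp11a1, stood at 1904 and 1084 CPM, Fdxr, its reductase, at 1315 and 1150, and the outer membrane protein gene Tspo at 489.5 and 419.8. Lonp1, a matrix protease that degrades Star, stood at 2738 and 1904 CPM. Below it were the import genes Tomm20 at 368.2 ± 73.3, Tomm40 at 318.1 ± 101 and Pmpcb at 250.4 ± 58.7 CPM.

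Of 12 regulators of Star transcription and mRNA decay, 10 were tested and 1 was called, a share near the 9.55% of all genes tested. Nr4a1, an immediate early nuclear receptor, was at 156.3 CPM in replicate 1 and 925.1 CPM in replicate 2 (log2 ratio 2.56, SE 0.12, adjusted p = 2.32e-104 by Fisher's exact test). Star itself differed by 1.05-fold, and a link between the levels of Nr4a1 and Star was not tested. Cebpb stood at 2757 and 2678 CPM, Nr5a1, the steroidogenic factor, at 1108 and 1216, and Crem at 153.0 and 139.3. Nr5a2 had 0 reads. The median log2 ratio of the 10 was 0.43.

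The 6 contact site partners of Stard3 and Stard3nl were all detected. None was called, which for 6 genes cannot be told apart from the 9.55% of all genes, and the median log2 ratio was -0.03. Vapa, the membrane anchor on the endoplasmic reticulum, stood at 558.1 and 441.7 CPM, Rab7 of late endosomes at 365.5 and 521.2, Npc2 at 227.4 and 224.8 and Npc1 at 27.3 and 25.9. Npc1 and Npc2 hand cholesterol out of lysosomes.

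Genes of sterol sensing and supply were set beside Stard4, and those called differed in direction. Hmgcs1, the synthase early in cholesterol synthesis, was called lower, at 2451 and 931.1 CPM (log2 ratio -1.39, adjusted p = 6.76e-102 by Fisher's exact test). Srebf2, the transcription factor of this pathway, was called higher, at 16.5 and 59.7 CPM (log2 ratio 1.84, adjusted p = 0.000120 by Fisher's exact test). Insig1 stood at 976.5 and 614.7 CPM and Sqle at 144.7 and 189.0, and neither was called. In direction Stard4 thus sat with Hmgcs1 and opposite Srebf2, from 28 reads in all.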

How the data were processed

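Long-read RNA-seq libraries of 2 adrenal gland samples, 1 group, were used. The authors deposited read counts per transcript model with the models themselves, whole numbers that were not normalised, on mm10 with GENCODE M21 per the deposited readme files. An ENCODE long-read analysis document, version 3.0, is cited per the labels' protocols. No aligner or platform is named by the sources used here. Each model's class is the authors'. The exons of all 141862 annotated models equalled those of the M21 reference, from whose transcript sequences the printed bases were read.

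Counts were summed per gene over all classes and scaled to 1209457 and 502655 nuclear reads. Genes with 10 or more reads over the pair of libraries, and shares with 50 or more in each, were compared by two-sided Fisher's exact tests with Benjamini-Hochberg adjustment over the whole table (scipy 1.17.1). Calls needed an adjusted p under 0.05 and 2-fold, or 10 percentage points. Log2 ratios used 0.5 added reads. The scripts were tested on simulated data. Models were matched between libraries by intron coordinates. Alternatives covered scaling (edgeR 4.0.16 TMM, DESeq2 1.42.0 size factors), read minimums, classes, added reads, thinning and length.

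The genes and lists were chosen with earlier results of these data known. The text names all 7 genes, their models with at least 3 reads in both libraries or 10% of the gene's reads, the 4 most abundant and every called member of each list, and the 2 protein-coding genes on either side of Star by mean CPM. A member of the sterol list is not reported here.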

Additional observations from a re-analysis of the deposited data

How the results depend on the processing

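No paired analysis was possible because both libraries belong to 1 group. Without the 2-fold minimum 1823 genes were called in place of 971, Star among them at a log2 ratio of 0.07. Other scalings, minimums, added reads, classes and thinning kept that count within 1.5 times. Calls on annotated shares were 371 and became 575 with 20 reads as the minimum, 232 with thinning, and 170 without single-exon models, a setting chosen after seeing the data. Calls on main transcript shares were 14 and became 346 with all classes in the denominator and 22 with 20 reads as the minimum. Leaving out 1 library kept between 4 and 7 of the 7 genes at their place in the order, the lower value without replicate 2, where the lowest 3 ran Stard10, Stard4, Stard5. Stard4 lost its call with annotated transcripts alone (-2.53) and with thinning (-2.66).

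Direction changed in 7 values, none of them called before or after. The log2 ratio became 0.0094 for Stard3nl with all reads as the denominator, -0.0030 for Star with annotated transcripts alone in counts and totals and 0.060 for Stard3 with thinning. The annotated share difference of Star (1.17 points) became -7.35 without the genomic class and -2.44 without single-exon models. The main transcript share difference became 1.17 points for Star and 2.28 for Stard7 with all classes in the denominator. The cause was not tested. Depth limits Stard5, Stard10 and Stard4 most, as each had 41 reads or fewer per library.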
